A study of Penicillium oxalicum with 72 samples.

Results

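The comparison described here follows *Penicillium oxalicum* on Avicel (AV), a microcrystalline cellulose, from 4 h to 24 h after the transfer. Its members are the 6 libraries whose short names give AV at 4 h or at 24 h, 3 of each, out of 72 libraries in 24 conditions. All of them come from strain Δ*PoxKu70*, which was made from the wild-type strain HP7-1 by deletion of *PoxKu70*, a gene of non-homologous end joining, so that the same deletion is present in every group compared below. Hyphae were pre-grown on glucose and then moved to medium with 1% AV, and the values therefore describe mycelium 4 h and 24 h after that shift. Medium with 1% glucose (GLU) and medium with no carbon source (NC), sampled at the same times with 3 libraries each, serve below as references. The study calls the 3 replicates of a condition biological, and the labels do not name their cultures.

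Cellulose is broken down outside the hypha by enzymes with different points of attack. Endoglucanases (EGs) cut inside the chain, cellobiohydrolases (CBHs) release cellobiose from chain ends, lytic polysaccharide monooxygenases (LPMOs) cut crystalline surfaces by oxidation, and beta-glucosidases (BGLs) split cellobiose into glucose. In filamentous fungi these genes are repressed on glucose through CreA, and are switched on by zinc cluster activators such as ClrB when cellulose products are taken up.

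Each of the 6 libraries lists between 9349 and 9522 genes. The deposited unit is FPKM, which divides the fragments of a gene by its transcript length and by the mapped reads of the library. Of 9821 genes, 8898 averaged 1 FPKM or more across the 72 libraries and were tested with limma on log2(FPKM + 1), and a gene was called at a Benjamini-Hochberg adjusted *p* of at most 0.05 and an absolute log2 fold change of at least 1. Between 4 h and 24 h, 3306 genes were called, 37.2% of those tested. Of these, 2532 were higher at 24 h (28.5% of the genes tested) and 774 were lower (8.7%). The called higher genes held 7.17% ± 0.57 of the summed FPKM at 4 h and 32.3% ± 0.25 at 24 h (SD, n = 3), whereas the called lower genes held 38.2% ± 1.94 and 9.33% ± 0.32. The genes that fell were thus fewer. Their median was 134 FPKM at 4 h and 33.3 FPKM at 24 h, compared with 9.13 and 28.3 FPKM for those that rose. A call for a fall itself favours genes that are high at 4 h.

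This imbalance bears on all directions given below. On the deposited scale all genes tested had a median log2 fold change of 0.54. When the 6 libraries were rescaled by the median of ratios, the median of all genes was 0.02, and 2366 genes were called (26.6%), 1048 higher (11.8%) and 1318 lower (14.8%), so that the share of called genes that were higher moved from 76.6% to 44.3%. No gene had opposite calls on the 2 scales. For every list, the count on the rescaled values is given beside that on the deposited values. Each count is to be read against the shares over all genes tested. These were 28.5% higher and 8.7% lower, or 11.8% and 14.8% after rescaling. The enzyme, transporter, receptor and transcription factor (TF) lists were taken from a table of the study that holds genes differing from NC in these same libraries, so their counts are not independent evidence of a direction.

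Of the 3 CBH genes, 2 were called higher on either scale and none was lower. *POX04786/Cel6A*, a CBH that works from the non-reducing end, had 70.5, 64.3 and 113 FPKM in the 3 libraries at 4 h, and 4689.6, 4783 and 4145 FPKM at 24 h. *POX05587/Cel7A-2*, the CBH of the opposite chain end, had 103, 98.1 and 177 FPKM at 4 h and 3921, 3831 and 3253 FPKM at 24 h. For both genes, the lowest library at 24 h lay far above the highest at 4 h, and replicate 3 was the highest of the 4 h libraries and the lowest of the 24 h libraries. The log2 fold change was 5.81 ± 0.20 (SE), adjusted *p* = 2.1e-07 for *POX04786/Cel6A* and 4.90 ± 0.22 (SE), adjusted *p* = 6.6e-07 for *POX05587/Cel7A-2*. The remaining CBH gene, *POX02490/Cel7A-1*, was low in all 6 libraries, with mean values of 0.643 FPKM at 4 h and 0.933 FPKM at 24 h, and was not called (log2 fold change 0.23 ± 0.18 (SE), adjusted *p* = 0.25, and -0.02 after rescaling). Together the 3 genes held 0.0209% ± 0.00703 of the summed FPKM at 4 h and 0.883% ± 0.0712 at 24 h (SD, n = 3), a ratio of 42.2, with an exact two-sided permutation *p* of 0.1, the smallest that 3 against 3 libraries can give.

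Of the 11 EG genes, 8 were called higher and 0 lower, against 5 and 1 after rescaling, and the median log2 fold change of the list was 1.55, or 0.98 after rescaling. *POX01166/Cel5B* was the most abundant of them. It had 238, 219.8 and 379 FPKM at 4 h and 5332, 4761 and 4081 FPKM at 24 h (log2 fold change 4.11 ± 0.21 (SE), adjusted *p* = 1.2e-06). *POX05571/Cel7B*, an endoglucanase of family GH7, had 84.2, 89 and 151 FPKM at 4 h and 1700.0, 1528 and 1232 FPKM at 24 h (log2 fold change 3.81 ± 0.23 (SE), adjusted *p* = 2.4e-06). The other named EG genes with a cellulose-binding module rose as well. All libraries at 24 h lay above those at 4 h, as for 63% of all genes tested. The log2 fold change was 3.50 for *POX06147/Cel5A*, 3.26 for *POX01896/Cel5C* and 3.23 for *POX05570/Cel45A*. *POX07535/Cel12A* was low in all libraries, at 17.9 ± 2.1 FPKM and 43.3 ± 4.45 FPKM (SD, n = 3), and its log2 fold change of 1.23 was 0.67 after rescaling, below the limit for a call. The EG gene called lower on rescaled values only was *POX04137*, which was picked out after its values were seen and had 185, 201 and 196 FPKM at 4 h and 109.8, 127 and 98.3 FPKM at 24 h.

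Of the 9 BGL genes, 6 were called higher and 0 lower on the deposited scale, against 4 and 1 after rescaling. The largest change was that of *POX06079*, annotated as an intracellular BGL, which had 178, 175 and 229 FPKM at 4 h and 4979, 4606 and 4257 FPKM at 24 h (log2 fold change 4.57 ± 0.13 (SE), adjusted *p* = 8.6e-08). *POX03641*, a putative BGL of family GH3, rose from 46.9, 43.6 and 67.6 FPKM to 711, 751 and 626 FPKM (log2 fold change 3.72 ± 0.16 (SE), adjusted *p* = 6.6e-07). *POX06835/Bgl1*, the named BGL of the study, stayed low by comparison. Its values were 27.8, 25.2 and 31.6 FPKM at 4 h and 59.5, 58.9 and 62.6 FPKM at 24 h, a log2 fold change of 1.08 ± 0.10 (SE), adjusted *p* = 2.3e-05 that fell to 0.51 after rescaling and was then not called. At 24 h the mean of *POX06079* was 76.5 times that of *POX06835/Bgl1* on the FPKM scale, which accounts for gene length.

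Swollenin and the LPMOs act on the crystalline surface. Of these 5 genes, 4 were called higher and 1 lower on either scale. *POX08485*, annotated as swollenin, a protein that loosens cellulose without cutting it, had 67, 56.6 and 101 FPKM at 4 h and 2658, 2652 and 2392 FPKM at 24 h (log2 fold change 5.12 ± 0.19 (SE), adjusted *p* = 3e-07). *POX08897/AA9*, an LPMO with a cellulose-binding module, had 6.29, 7.58 and 11.1 FPKM and 397, 367 and 315 FPKM (log2 fold change 5.30 ± 0.18 (SE), adjusted *p* = 2.3e-07). *POX02308/Cel61A* also rose, with a log2 fold change of 3.06 ± 0.23 (SE), adjusted *p* = 8.6e-06, and on NC its log2 fold change was 3.73. *POX05968*, a further putative LPMO, went the other way and fell from 160.1, 182 and 187 FPKM to 78.2, 81.6 and 72.5 FPKM (log2 fold change -1.18 ± 0.09 (SE), adjusted *p* = 1.1e-05). A further table of the study names *POX08897* as swollenin and *POX08485* as expansin-like, and the names used here follow its enzyme table.

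**Figure D1:**
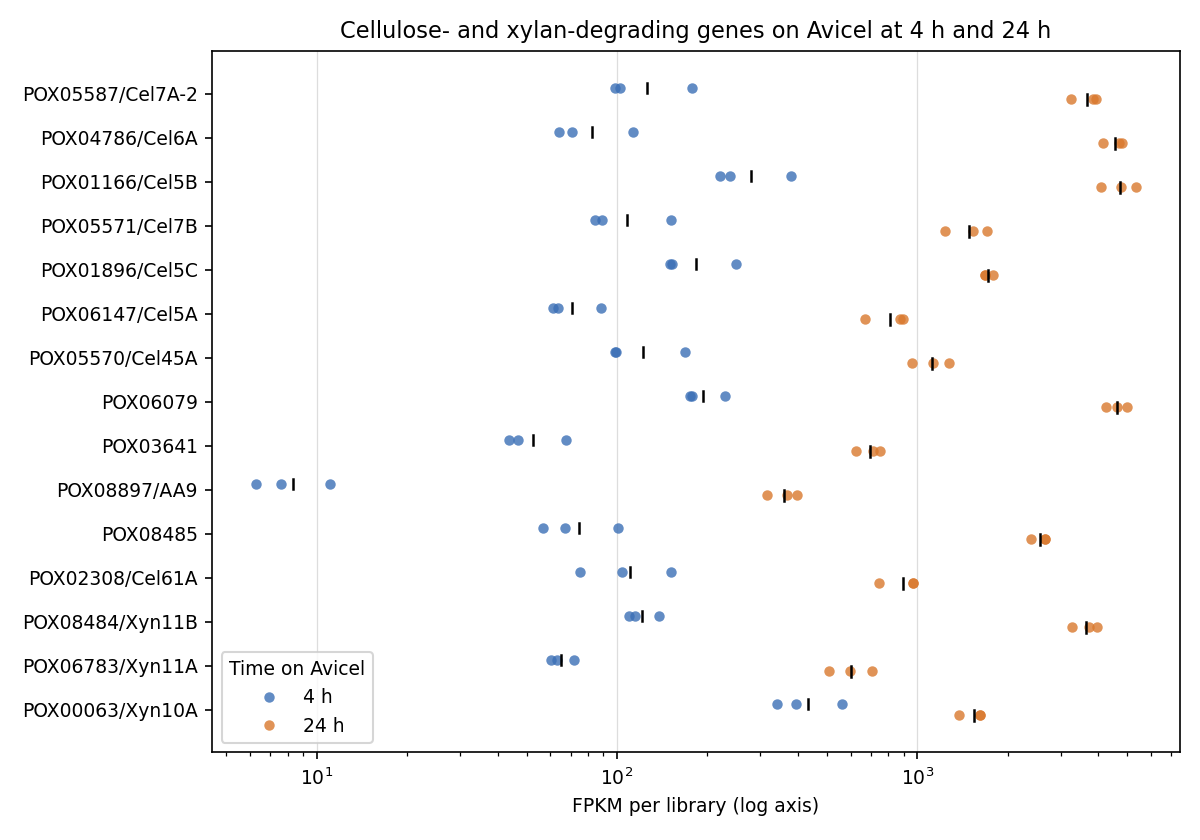
FPKM of cellulose- and xylan-degrading genes in each of the 3 libraries on AV at 4 h (blue) and the 3 at 24 h (orange), on a log axis, with a black tick at each mean. The genes are a selection, and *POX02490/Cel7A-1*, *POX04137*, *POX05968* and *POX01417*, which fell or were not called higher, are not drawn. In each drawn gene the 3 libraries at 24 h lie above the 3 libraries at 4 h, as in 63% of all genes tested.

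Genes for xylan degradation changed as well. Of 10 endoxylanase genes, 6 were called higher and 1 lower on either scale, with a median log2 fold change of 1.72 (1.15 after rescaling). *POX08484/Xyn11B*, an endoxylanase of family GH11, had 114, 110.0 and 138 FPKM at 4 h and 3719, 3964 and 3264 FPKM at 24 h (log2 fold change 4.91 ± 0.12 (SE), adjusted *p* = 4.6e-08). The largest log2 fold change of the list was that of *POX06601*, a putative endoxylanase of family GH30 with a cellulose-binding module, which went from 0.72, 0.56 and 0.6 FPKM to 100.1, 132 and 87.8 FPKM (log2 fold change 6.03 ± 0.15 (SE), adjusted *p* = 5e-08). *POX00063/Xyn10A* was already abundant at 4 h, with 340.1, 394 and 560.1 FPKM, and had 1619, 1617 and 1378 FPKM at 24 h. *POX06783/Xyn11A* rose by 3.18 on the log2 scale. A weakly expressed member, *POX01417*, fell from 6.47, 8.96 and 12.3 FPKM to 2.16, 1.5 and 1.78 FPKM (log2 fold change -1.83 ± 0.21 (SE), adjusted *p* = 7.3e-05).

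Of 28 tested genes for xylan side chains and xylo-oligosaccharides, 14 were called higher and 0 lower (12 and 2 after rescaling), led by the putative beta-xylosidase *POX01646*, with 7.25, 5.93 and 10.2 FPKM at 4 h and 97.4, 98.7 and 106 FPKM at 24 h, and the putative acetyl xylan esterase *POX01218* (log2 fold change 2.98). Mannan-degrading genes rose in 6 of 7 cases, with 0 lower (4 and 0 after rescaling). Among them *POX01937*, an endo-mannanase that cuts the mannan backbone, reached 3758, 3916 and 3529.8 FPKM at 24 h from 470.5, 486 and 712 FPKM at 4 h (log2 fold change 2.77 ± 0.16 (SE), adjusted *p* = 2.2e-06), and *POX09085*, a putative alpha-galactosidase, rose by 3.56 on the log2 scale. Of 30 tested pectin-degrading genes, 17 were called higher and 2 lower (12 and 3 after rescaling). The largest rise of the list was that of *POX05580*, a polygalacturonase, which cuts the pectin backbone, from 1.27, 0.99 and 0.98 FPKM to 39.4, 46 and 37 FPKM. Another polygalacturonase gene, *POX07304*, fell from 41.5, 41 and 49.7 FPKM to 19.1, 17.2 and 15.3 FPKM, and the largest fall was that of *POX08875*, annotated as an unsaturated rhamnogalacturonyl hydrolase, from 13.9, 12.4 and 18.5 FPKM to 4.41, 3 and 3.96 FPKM.

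Starch-degrading genes gave a mixed picture. Of 12 genes, 5 were called higher and 1 lower (3 and 1 after rescaling), with a median log2 fold change of 0.90 (0.38 after rescaling) beside 0.54 (0.02) for all genes. *POX09352/Amy13A*, an alpha-amylase, rose from 4.59, 7.85 and 8.81 FPKM to 45, 37.3 and 38.4 FPKM (log2 fold change 2.39 ± 0.20 (SE), adjusted *p* = 1.5e-05). *POX01356/Amy15A*, the glucoamylase that releases glucose from starch ends, had 43.9, 62.6 and 71.4 FPKM at 4 h and 78.2, 52.5 and 58.4 FPKM at 24 h, and its groups overlapped (log2 fold change 0.10 ± 0.20 (SE), adjusted *p* = 0.68). A putative alpha-glucosidase, *POX08147*, fell from 68.6, 72.2 and 86.3 FPKM to 25.7, 27.2 and 23.7 FPKM.

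The 69 genes of the sugar transporter list held 0.54% ± 0.0567 of the summed FPKM at 4 h and 3.09% ± 0.126 at 24 h (SD, n = 3, exact two-sided permutation *p* = 0.1, the smallest possible). The share also rose on NC, from 0.316, 0.327 and 0.495% to 1.53, 1.531 and 1.535%, and on GLU, from 0.248, 0.227 and 0.222% to 0.491, 0.881 and 0.481%. On AV at 24 h, 56.9% of the list's FPKM came from *POX06051/CdtC*, a cellodextrin transporter that imports cellobiose and longer cellulose fragments. It had 1148, 1231 and 1745 FPKM at 4 h and 17069.6, 15780.3 and 16139 FPKM at 24 h (log2 fold change 3.59 ± 0.16 (SE), adjusted *p* = 7.3e-07), and was the second most abundant transcript of the mean 24 h profile, with 1.76% of the summed FPKM. The other named cellodextrin transporter, *POX05915/CdtD*, rose from 643, 698 and 943 FPKM to 4114, 4123 and 3808 FPKM (log2 fold change 2.42 ± 0.15 (SE), adjusted *p* = 2.8e-06).

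Over the whole list, 27 of 64 tested sugar transporter genes were called higher (42.2%) and 7 lower (10.9%), beside 28.5% and 8.7% of all genes. After rescaling, 18 were higher and 11 lower. *POX04918* rose from 1.38, 1.5 and 2.31 FPKM to 80.7, 68.5 and 49.2 FPKM. By contrast, *POX07227*, annotated as a sugar-proton symporter, fell from 72.7, 72.4 and 65.4 FPKM to 5.8, 1.03 and 0.71 FPKM (log2 fold change -4.63 ± 0.45 (SE), adjusted *p* = 3.1e-05), and *POX02624* from 185, 151 and 82.6 FPKM to 4.12, 2.8 and 8.89 FPKM. Of 154 other tested transporters of the major facilitator superfamily, 61 were called higher (39.6%) and 18 lower (11.7%), with 31 of each after rescaling. Of 33 ABC transporter genes, 10 were higher and 4 lower (6 and 7 after rescaling), close to the shares over all genes. The largest fall among the ABC transporters, that of *POX03597*, rested on unequal libraries. Its values were 208, 105 and 16.8 FPKM at 4 h and 11.8, 13.9 and 18.3 FPKM at 24 h (log2 fold change -2.25 ± 0.77 (SE), adjusted *p* = 0.025), and without replicate 1 at 4 h the log2 fold change was -1.50 and was no longer called (adjusted *p* = 0.074).

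Regulators of these enzymes were examined next. Of 17 known and candidate regulators, 12 were called higher (70.6%) and 1 lower (5.9%), beside 28.5% and 8.7% of all genes. After rescaling, 7 were higher and 1 lower. *POX01960/ClrB*, a main activator of cellulase genes, had 28, 28.8 and 38 FPKM at 4 h and 139, 120.0 and 105 FPKM at 24 h (log2 fold change 1.91 ± 0.15 (SE), adjusted *p* = 8.7e-06). *POX02071/ClrB-2* rose from 11.3, 11.6 and 19.1 FPKM to 52.4, 47.9 and 45 FPKM (log2 fold change 1.76 ± 0.19 (SE), adjusted *p* = 4.8e-05). *POX01167/CxrA*, a regulator of cellulase and xylanase genes in this fungus, had the largest change of the named regulators. It had 5.05, 5.34 and 7.65 FPKM at 4 h and 139, 151 and 160.1 FPKM at 24 h (log2 fold change 4.44 ± 0.14 (SE), adjusted *p* = 1.7e-07). *POX02484*, an unnamed zinc cluster TF, rose from 25.6, 26.6 and 20.4 FPKM to 207, 235 and 213 FPKM (log2 fold change 3.13 ± 0.12 (SE), adjusted *p* = 2.9e-07). Its mean on NC was already 182 FPKM at 4 h and was 133 FPKM at 24 h.

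Several further regulators lost their call after rescaling. *POX05324/XlnR*, the activator of xylanase genes, had 17.2, 17.4 and 21.7 FPKM at 4 h and 46.9, 40.1 and 35.4 FPKM at 24 h, and its log2 fold change of 1.08 was 0.52 after rescaling and 0.98 without replicate 1 at 24 h, under the limit in either case. *POX03837/ClrA* and *POX04420/CxrB* were called on the deposited scale (log2 fold changes 1.34 and 1.33) but not after rescaling (0.78 and 0.75). *POX03890/AmyR*, the activator of amylase genes, kept its call, with a log2 fold change of 1.66 ± 0.19 (SE), adjusted *p* = 8.2e-05, and of 1.11 after rescaling. The transcript of *POX07254/CreA*, the repressor that acts on glucose, was abundant at both times, with 389, 451 and 422 FPKM at 4 h and 389, 379 and 353 FPKM at 24 h, groups that overlapped (log2 fold change -0.17 ± 0.09 (SE), adjusted *p* = 0.12). *POX03888/PrtT*, the activator of protease genes, was not called either (log2 fold change 0.28 ± 0.14 (SE), adjusted *p* = 0.092, and -0.28 after rescaling). The called fall in the list was that of *POX08292/MBF1*, a transcriptional coactivator, which went from 725, 648 and 561 FPKM to 189, 186 and 183 FPKM (log2 fold change -1.78 ± 0.11 (SE), adjusted *p* = 2.6e-06).

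Among all 274 tested TF genes, 103 were called higher (37.6%) and 18 lower (6.6%), beside 28.5% and 8.7% of all genes. After rescaling, 39 were higher and 33 lower, beside 11.8% and 14.8% of all genes. The median log2 fold change was 0.70 (0.18 after rescaling), beside 0.54 (0.02) for all genes. *POX09469*, with a winged helix domain, was nearly absent at 4 h (0.05, 0.11 and 0.11 FPKM) and had 23.3, 22.4 and 22.5 FPKM at 24 h. *POX07938*, a zinc cluster TF, fell from 708, 673 and 432 FPKM to 89.1, 90.0 and 98.9 FPKM (log2 fold change -2.66 ± 0.18 (SE), adjusted *p* = 4.6e-06). Of 18 genes listed as G protein-coupled receptors (GPCRs), 9 were called higher (50%) and 1 lower (5.6%), against 3 and 1 after rescaling. The largest rise was that of *POX06057*, which carries the domains of the Git3/GPR1 glucose receptors, from 14.9, 16 and 19.1 FPKM to 88.8, 80.1 and 73.3 FPKM (log2 fold change 2.21 ± 0.12 (SE), adjusted *p* = 1.5e-06).

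**Figure D2:**
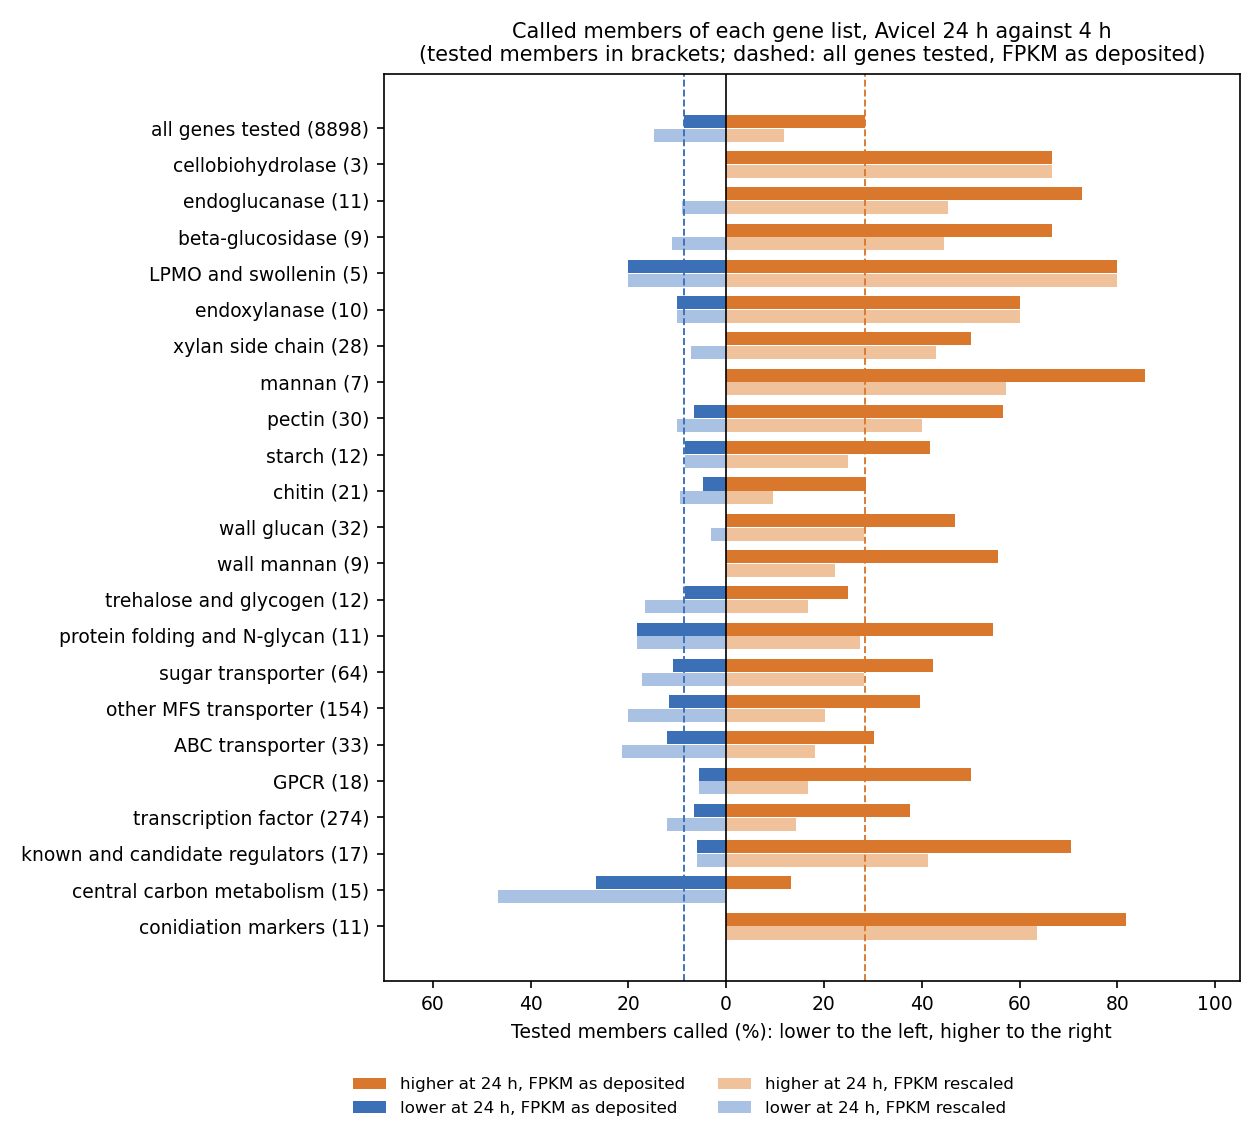
Percentage of the tested members of each gene list that were called higher (to the right) or lower (to the left) on AV at 24 h against 4 h, for FPKM as deposited (dark bars, orange for higher and blue for lower) and rescaled by the median of ratios (pale bars). Dashed lines mark the shares over all 8898 genes on the deposited scale, 28.5% higher and 8.7% lower, and on rescaled values central carbon metabolism has 7 of 15 genes lower and 0 higher.

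Of 15 tested genes of central carbon metabolism, 2 were called higher (13.3%) and 4 lower (26.7%), beside 28.5% and 8.7% of all genes, and 9 were not called. The median log2 fold change was -0.25, and after rescaling 0 were higher and 7 lower, with a median of -0.83. Citrate synthase, which starts the tricarboxylic acid cycle, fell in both of its listed copies. *POX01075* went from 2312, 2253 and 1995 FPKM to 362, 382 and 431 FPKM (log2 fold change -2.48 ± 0.10 (SE), adjusted *p* = 5.5e-07), and *POX04356* from 472, 475 and 443 FPKM to 42, 37.5 and 39.8 FPKM (log2 fold change -3.51 ± 0.08 (SE), adjusted *p* = 4e-08). The other 2 called falls were those of an oxoglutarate dehydrogenase gene and of *POX05829*, of the alcohol dehydrogenase superfamily (144, 139.8 and 187 FPKM and 67.2, 59 and 56 FPKM). In glycolysis, *POX07164/TpiA*, triosephosphate isomerase, had 25.5, 27 and 28.5 FPKM and 28.1, 31.5 and 25.6 FPKM and was not called (log2 fold change 0.07, and -0.49 after rescaling). A hexokinase gene, *POX05787*, was called higher on the deposited scale (log2 fold change 1.55) and just missed the limit after rescaling (0.98), and *POX02832/GalM*, aldose 1-epimerase, had a log2 fold change of 1.32 that was 0.74 after rescaling. The list held 0.474% ± 0.0155 of the summed FPKM at 4 h and 0.218% ± 0.00578 at 24 h (SD, n = 3). Its share was also lower at 24 h in both references. On NC it was 0.389, 0.36 and 0.313% at 4 h and 0.243, 0.2 and 0.23% at 24 h. On GLU it was 0.384, 0.4 and 0.396% at 4 h and 0.199, 0.233 and 0.246% at 24 h. On NC, *POX01075* changed by -1.66 and *POX04356* by -1.95 on the log2 scale.

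Of 11 genes listed for protein folding and N-glycans, which are not all genes of secreted proteins, 6 were called higher and 2 lower (3 and 2 after rescaling). *POX01189*, a putative alpha-mannosidase of N-glycan processing, had a log2 fold change of 1.87 ± 0.14 (SE), adjusted *p* = 7.4e-06, and *POX03367/ClpX*, an unfoldase of mitochondrial proteins, one of 1.90. The 2 called falls were those of *POX02034*, annotated as a stress-induced phosphoprotein, from 411, 354 and 285 FPKM to 113, 109 and 111 FPKM, and of *POX06818*, annotated as a DnaJ heat shock protein, from 152, 134 and 95.9 FPKM to 63.2, 58.6 and 57.7 FPKM (without replicate 1 at 4 h the latter had a log2 fold change of -0.91, under the limit). Of 12 trehalose and glycogen genes, 3 were called higher (25%) and 1 lower (8.3%), close to the shares over all genes (2 and 2 after rescaling). The fall was that of *POX08768*, a putative trehalase, from 156, 123 and 141 FPKM to 27.4, 25.5 and 45.9 FPKM.

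Among enzymes of the fungal wall, 15 of 32 tested glucan-modifying genes were called higher (46.9%) and 0 lower (9 and 1 after rescaling). Of 9 wall mannan genes, 5 were higher (55.6%) and 0 lower (2 and 0). Of 21 chitin-related genes, 6 were higher and 1 lower (2 and 2), and the share of higher calls (28.6%) was that of all genes tested (28.5%). The largest rise among the wall glucan genes was that of *POX07083*, a putative glucanase of family GH16, from 1.26, 2.4 and 2.4 FPKM to 21.2, 21.2 and 20.2 FPKM. *POX07573*, a putative beta-N-acetylhexosaminidase, which takes chitin fragments apart, rose from 26.8, 26.5 and 27.6 FPKM to 111, 108 and 107 FPKM. Of the 12 peptidase genes of the module that the study calls MEroyalblue, 2 were called higher and 4 lower (0 and 7 after rescaling), and the largest fall was that of the serine carboxypeptidase gene *POX01929*, from 37.6, 34.7 and 42.7 FPKM to 3.73, 2.74 and 3.24 FPKM (log2 fold change -3.22 ± 0.12 (SE), adjusted *p* = 3.5e-07).

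The samples are labelled as mycelium, and markers of asexual development were therefore checked. The study names these genes as members of MEdarkgrey, a group of co-expressed genes found on these same libraries. Their shared direction is therefore not independent evidence. *POX00872/NimX*, a kinase of cell division that the study lists with them, was left out of the markers. It was not called (log2 fold change 0.40, and -0.18 after rescaling). Of 11 marker genes of conidiation and of conidial pigment, 9 were called higher at 24 h and 0 lower (7 and 0 after rescaling), and in all 11 the 3 libraries at 24 h lay above the 3 at 4 h, which was the case for 63% of all genes tested, while 18.9% of all genes had the 3 libraries at 24 h below the 3 at 4 h. *POX06534/BrlA*, the central activator of conidiation in *Aspergillus* and *Penicillium*, had 1.39, 0.55 and 0.94 FPKM at 4 h and 7.89, 7.74 and 5.73 FPKM at 24 h (log2 fold change 2.06 ± 0.19 (SE), adjusted *p* = 2.3e-05). *POX07025/AbaA*, which acts after BrlA, had 0.98, 1.54 and 1.41 FPKM and 4.47, 3.9 and 3.45 FPKM, and its log2 fold change of 1.10 was 0.70 after rescaling. The upstream regulator *POX07099/FlbD* had a log2 fold change of 1.71 ± 0.20 (SE), adjusted *p* = 9.5e-05, and *POX07586/FlbB* had a log2 fold change of 1.15, or 0.57 after rescaling.

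Pigment genes changed over a wider range. *POX01176/ArpA-like* had 4.22, 3.07 and 6.91 FPKM at 4 h and 4675, 5307 and 4165 FPKM at 24 h (log2 fold change 9.73 ± 0.22 (SE), adjusted *p* = 3.5e-08). *POX01179/ArpB-like* had 2.46, 2.3 and 4.68 FPKM and 3305, 3842 and 2946 FPKM (log2 fold change 9.70 ± 0.21 (SE), adjusted *p* = 2.2e-08). *POX01390/AygA* reached 34.8, 30.6 and 32.1 FPKM from 1.1, 1.05 and 0.79 FPKM, and *POX03412/ArpA* 11.6, 13.6 and 13.2 FPKM from 0.66, 0.53 and 0.52 FPKM. *POX01430/Alb1*, the polyketide synthase that begins conidial melanin synthesis, remained low, at 0.46, 0.55 and 0.78 FPKM and 1.39, 0.99 and 1.17 FPKM, and was not called, and neither was *POX05090/TmpA* (log2 fold change 0.50, and -0.06 after rescaling). In a bulk sample, a larger share of developing cells and more RNA per cell cannot be told apart. The summed level of the 11 markers was between 0.0106% and 0.013% of the summed FPKM at 4 h and between 0.808% and 1.01% at 24 h, when the *Arp*-like genes held 96% of it. Many of the enzyme, transporter and regulator genes described above also rose between 4 h and 24 h. These 2 times do not give the order of the rises, and the part of the markers in those results was not tested.

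Most of the largest changes were those of genes without annotation in the sources used here. The 10 largest rises among called genes without overlap and with a mean of at least 10 FPKM lay between 8.78 and 11.09 on the log2 scale, from means of at most 4.73 FPKM at 4 h to means between 658 and 4716 FPKM at 24 h. *POX01175*, for which no function is given in the sources used here, was first with 0.43, 0.52 and 1.03 FPKM and 3052, 3802 and 3907 FPKM. The 10 also held *POX01176/ArpA-like*, *POX01179/ArpB-like* and *POX01168*, a transporter of the major facilitator superfamily (0.92, 0.66 and 0.74 FPKM and 1142, 1449 and 1483 FPKM). Of the 10 rises, 2 were larger than on NC and all 10 were larger than on GLU by the tests described below. The 10 largest falls, between -6.05 and -7.42, held 1 annotated gene. This was *POX05132*, a putative cutinase, an enzyme that degrades the plant cuticle, with 10243, 10562 and 11833 FPKM at 4 h, when it was the second most abundant transcript of the mean profile, and 87.1, 46.4 and 86.2 FPKM at 24 h (log2 fold change -7.25 ± 0.23 (SE), adjusted *p* = 1.5e-07). The largest fall was that of *POX00805*, from 3668, 3015 and 2755 FPKM to 27.8, 8.8 and 20.7 FPKM. This was not a steady decline, as its mean on AV was 7191 FPKM at 12 h and 1116 FPKM at 48 h, times that were not tested.

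To place the 2 times in the course of the culture, the libraries on AV at 12 h and 48 h were set beside them, with no test. The 23 cellulase genes (CBH, EG and BGL) held 0.168, 0.165 and 0.231% of the summed FPKM in the 3 libraries at 4 h, 0.986, 0.351 and 0.297% at 12 h, 2.82, 2.69 and 2.37% at 24 h and 1.43, 1.22 and 1.58% at 48 h. The share was thus highest at 24 h, and at 12 h replicate 1 stood well above the other libraries of its time. The endoxylanase share was 0.11, 0.127 and 0.168% at 4 h, 0.166, 0.069 and 0.0603% at 12 h, 0.803, 0.893 and 0.703% at 24 h and 0.369, 0.308 and 0.376% at 48 h. The sugar transporter share was also highest at 24 h, with 3.23, 3 and 3.03%, compared with 1.11, 1.18 and 1.3% at 48 h. The conidiation markers differed from these lists. They held 1.67, 0.672 and 0.562% at 12 h, 0.89, 1.01 and 0.808% at 24 h and 1.75, 1.41 and 1.74% at 48 h, so that all 3 libraries at 48 h, and replicate 1 at 12 h, lay above every library at 24 h.

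**Figure D3:**
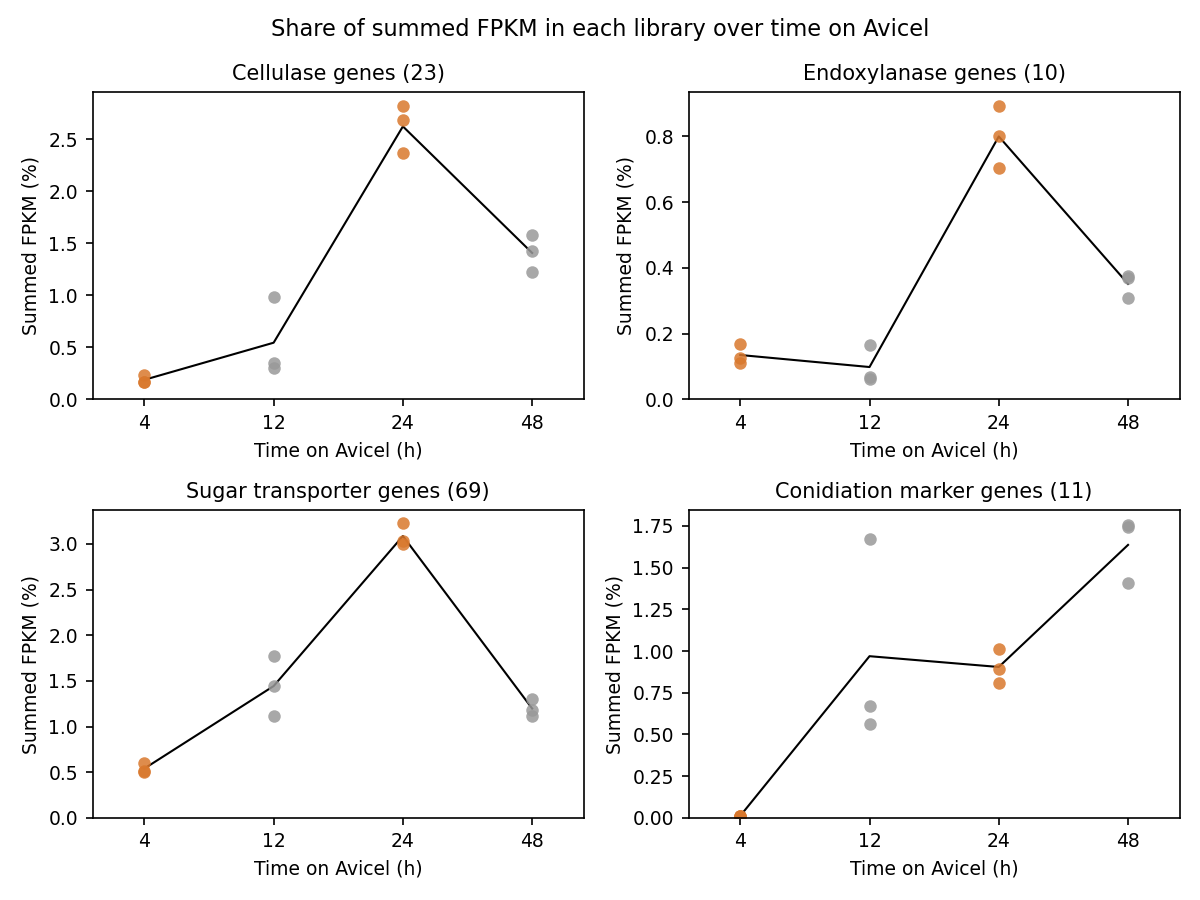
Share of the summed FPKM held by 4 gene lists in each of the 3 libraries on AV at 4, 12, 24 and 48 h, with a line through the means. Orange points are the compared times and grey points the other 2 times, and the cellulase share is between 2.37% and 2.82% at 24 h and between 1.22% and 1.58% at 48 h.

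Changes from 4 h to 24 h also occur without cellulose, and the change on AV was therefore tested against that on NC and on GLU with an interaction term. The change differed from that on NC for 1705 of 8898 genes (19.2%), larger or less negative on AV for 916 (10.3%) and smaller for 789 (8.87%). It differed from that on GLU for 2643 genes (29.7%), higher for 1486 (16.7%) and lower for 1157 (13%). After rescaling, 1658 genes (18.6%) differed from NC and 2407 (27.1%) from GLU, of which 622 (6.99%) and 1036 (11.6%) were higher and lower against NC, and 923 (10.4%) and 1484 (16.7%) against GLU. In 1 library of NC at 24 h, replicate 3, other words of the label give 4 h, and without it 1734 genes differed from NC, 1630 of them also called with it.

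Of the 23 cellulase genes, 11 had a larger (or less negative) change on AV than on NC and 2 a smaller one, and 13 had a larger change than on GLU and 2 a smaller one (11 and 2, and 10 and 3, after rescaling). From 4 h to 24 h *POX05587/Cel7A-2* changed by 4.90 on AV, by -0.30 on NC and by 1.33 on GLU on the log2 scale. On NC, *POX05587/Cel7A-2* had 2.78, 3.01 and 3.97 FPKM at 4 h and 2.06, 2.68 and 2.55 FPKM at 24 h, and on GLU 0.4, 0.16 and 0.6 FPKM and 2.46, 2.56 and 2.38 FPKM. *POX04786/Cel6A* changed by 5.81 on AV, 1.82 on NC and 1.92 on GLU. *POX06835/Bgl1* was an exception, with a log2 fold change of 1.08 on AV, of 2.11 on NC and of 2.63 on GLU, so that its change was smaller on AV than in both other media. Of the 10 endoxylanase genes, 5 had a larger change than on NC and 1 a smaller one, and 5 had a larger change than on GLU and 0 a smaller one (4 and 1, and 3 and 2, after rescaling). *POX00063/Xyn10A* changed by 1.86 on AV, by -1.46 on NC and by 0.69 on GLU. Its means on NC were low, at 4.51 FPKM at 4 h and 0.987 FPKM at 24 h. Its difference from GLU, 1.17 ± 0.67 (SE), was not called by limma (adjusted *p* = 0.16).

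Starch genes changed less on AV in more cases. Of 12 genes, 0 had a larger change than on NC and 6 a smaller one, and 1 had a larger change than on GLU and 9 a smaller one (0 and 7, and 1 and 9, after rescaling). *POX09352/Amy13A* had 1277, 599.5 and 827 FPKM on NC and 29.8, 609.9 and 101 FPKM on GLU at 24 h, compared with 45, 37.3 and 38.4 FPKM on AV. The GLU libraries at 24 h differed widely among themselves. The log2 fold change was 6.13 on NC, 5.87 on GLU and 2.39 on AV. For sugar transporter genes smaller changes were likewise more frequent, with 6 larger and 11 smaller changes than on NC and 8 larger and 23 smaller than on GLU (3 and 16, and 8 and 27, after rescaling), although *POX06051/CdtC* was among the larger ones in both tests on the deposited scale. The log2 fold change of *POX06051/CdtC* was 3.59 on AV, 2.44 on NC and 1.38 on GLU.

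For the conidiation markers the references parted. None of the 11 markers changed differently on AV and on NC by limma (0 of 11 on either scale, 0 at an unadjusted *p* of at most 0.05 with the same size limit, and 3 at that *p* with any size), and 8 changed more on AV than on GLU and 0 less on either scale. The 8 include *POX01430/Alb1*, which was not called on AV and was weak in both media. Its means at 4 h and 24 h were 0.597 and 1.18 FPKM on AV and 1.51 and 0.607 FPKM on GLU. *POX01176/ArpA-like* had 4472, 4070.2 and 4233 FPKM on NC at 24 h and 14.8, 30.1 and 9.64 FPKM on GLU at 24 h. The absence of a call against NC does not show that the changes were equal. The median log2 fold change of the markers was 1.97 on AV, 1.99 on NC and 0.46 on GLU, beside 0.54, 0.34 and 0.29 for all genes tested.

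**Figure D4:**
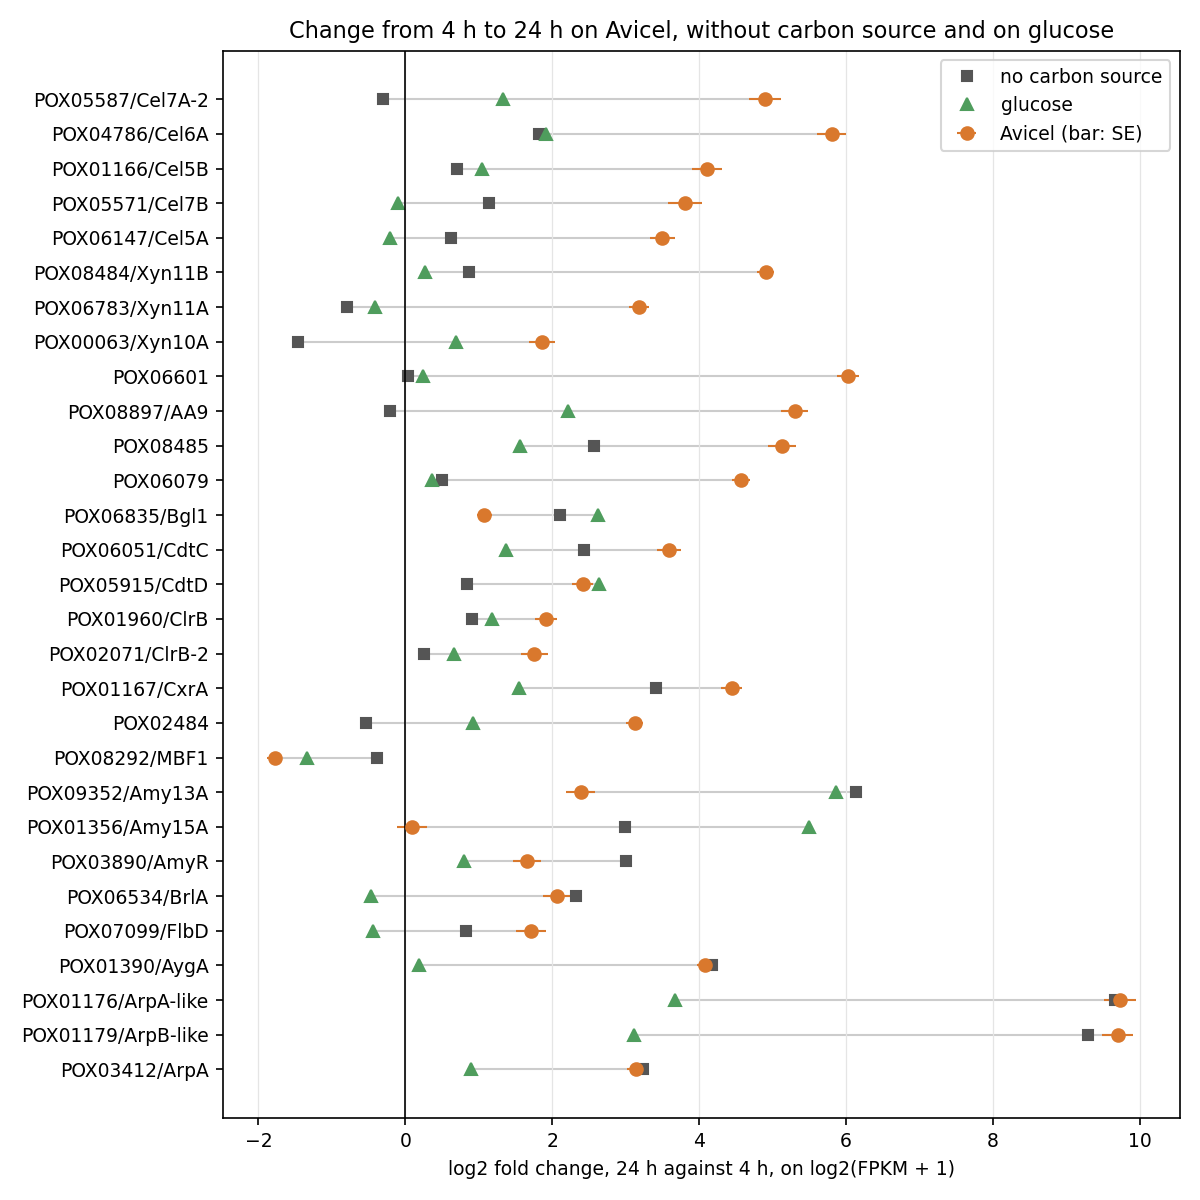
Log2 fold change from 4 h to 24 h of a selection of the named genes on AV (orange circles, bar for the SE), NC (grey squares) and GLU (green triangles), on log2(FPKM + 1). The markers *POX01430/Alb1*, *POX05090/TmpA*, *POX07025/AbaA* and *POX07586/FlbB* are not drawn. The regulators *POX05324/XlnR*, *POX03837/ClrA*, *POX04420/CxrB*, *POX07254/CreA* and *POX03888/PrtT* are not drawn either. *POX05587/Cel7A-2* lies at 4.90 on AV, -0.30 on NC and 1.33 on GLU, whereas the *Arp*-like pigment genes lie above 9 on both AV and NC.

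The study groups co-expressed genes into modules, which were found on these same libraries. Of the 108 tested genes of MEivory, a module that holds CBH, EG and BGL genes, 80 were called higher and 0 lower (56 and 2 after rescaling), with a median log2 fold change of 1.62 (1.15 after rescaling). The module held 0.723, 0.75 and 0.9% of the summed FPKM in the 3 libraries at 4 h and 7.17, 6.9 and 6.35% at 24 h. Of the 140 tested genes of MEroyalblue, 50 were called higher (35.7%) and 16 lower (11.4%), beside 28.5% and 8.7% of all genes, with a median of 0.38. After rescaling, 33 were higher and 31 lower with a median of -0.13, a direction that depends on the scale.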

How the data were processed

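Poly(A) mRNA of 72 libraries was sequenced on the BGISEQ-500 platform, and the 6 libraries on AV at 4 h and 24 h were compared. The deposited values are FPKM per gene, which the authors computed with RSEM after read filtering and alignment with HISAT and Bowtie2 (version numbers for Bowtie2 differ between the sources). A gene left out of a file was taken as 0. The files hold gene IDs without names, and names and annotations were taken from tables and text of the study. Summed FPKM was between 924393 and 1003316 in the 6 libraries. FPKM keeps no read totals, so the depth of the libraries was not measured here and no counting interval is given.

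Genes that averaged 1 FPKM or more in the whole series were tested with limma 3.58.1 (R 4.3.3), with a mean-variance trend, on log2(FPKM + 1), which understates the change of low genes. A call needed a Benjamini-Hochberg adjusted *p* of at most 0.05 over all genes tested and an absolute log2 fold change of at least 1. The study's own limit was on an unadjusted *p*. AV was compared with NC and GLU by an interaction term over 12 libraries. Shares of summed FPKM were compared by an exact two-sided permutation test. Alternatives were a pseudocount of 0.1, no filter, rescaling by the median of ratios, a replicate block, all 72 libraries in the fit, an unadjusted *p*, and each library left out.

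Named genes were those named in the study's text and in a list, the 10 largest rises and falls, the 2 largest of each direction within a list, and the 3 largest interaction differences. Members and lists were chosen with earlier results of these data known. The labels do not name the cultures behind the replicates, and *p*-values measure the spread between these libraries. Sequences and coordinates were not used here.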

Additional observations from a re-analysis of the deposited data

Results flagged for a closer look

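The change from 4 h to 24 h on AV differed by the interaction term from that on NC for 1705 genes and from that on GLU for 2643 genes. The values below are differences of log2 fold changes, AV minus the reference, for each gene named with a value in the report or below that had such a difference, 52 genes for NC and 60 for GLU. All passed the adjusted limit of limma on the deposited scale. After rescaling, 3 of the 52 and 5 of the 60 were no longer called. Against NC these were *POX01167/CxrA* (0.84 after rescaling), *POX01960/ClrB* (0.79) and *POX06051/CdtC* (0.93), and against GLU *POX02071/ClrB-2* (0.81), *POX03837/ClrA* (0.86), *POX07535/Cel12A* (0.82), *POX04137* (0.81) and *POX07083* (0.81).

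Among cellulase genes the difference from NC was 5.21 for *POX05587/Cel7A-2*, 3.99 for *POX04786/Cel6A*, 3.41 for *POX01166/Cel5B*, 2.87 for *POX06147/Cel5A*, 2.67 for *POX05571/Cel7B*, 2.58 for *POX01896/Cel5C*, 2.03 for *POX05570/Cel45A*, 4.07 for *POX06079*, 4.05 for *POX03641* and -1.04 for *POX06835/Bgl1*. From GLU it was 3.57 for *POX05587/Cel7A-2*, 3.89 for *POX04786/Cel6A*, 3.06 for *POX01166/Cel5B*, 3.72 for *POX06147/Cel5A*, 3.91 for *POX05571/Cel7B*, 2.05 for *POX01896/Cel5C*, 2.92 for *POX05570/Cel45A*, 1.10 for *POX07535/Cel12A*, 1.07 for *POX04137*, 4.21 for *POX06079*, 3.20 for *POX03641* and -1.56 for *POX06835/Bgl1*. Among LPMO and swollenin genes the difference from NC was 5.52 for *POX08897/AA9* and 2.55 for *POX08485*. Relative to GLU it was 3.08 for *POX08897/AA9*, 3.57 for *POX08485* and 2.93 for *POX02308/Cel61A*.

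Among genes for xylan degradation the difference from NC was 5.99 for *POX06601*, 4.04 for *POX08484/Xyn11B*, 3.98 for *POX06783/Xyn11A*, 3.31 for *POX00063/Xyn10A*, -1.48 for *POX01417*, 2.24 for *POX01646* and 1.27 for *POX01218*. With GLU as the reference it was 5.78 for *POX06601*, 4.63 for *POX08484/Xyn11B*, 3.59 for *POX06783/Xyn11A*, 1.60 for *POX01646* and 2.15 for *POX01218*. Among mannan and pectin genes the difference from NC was 2.05 for *POX01937*, 3.59 for *POX09085* and 2.73 for *POX05580*. From GLU it was 1.41 for *POX01937*, 2.63 for *POX09085*, 1.42 for *POX05580*, 1.54 for *POX07304* and -2.35 for *POX08875*. For starch genes the difference from NC was -3.75 for *POX09352/Amy13A* and -2.90 for *POX01356/Amy15A*. Relative to GLU it was -3.48 for *POX09352/Amy13A*, -5.40 for *POX01356/Amy15A* and -3.66 for *POX08147*.

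Among regulators and the receptor *POX06057* the difference from NC was 1.02 for *POX01167/CxrA*, 1.51 for *POX02071/ClrB-2*, 1.25 for *POX04420/CxrB*, 1.00 for *POX01960/ClrB*, 3.66 for *POX02484*, -1.35 for *POX03890/AmyR*, -1.39 for *POX08292/MBF1*, -2.60 for *POX07938* and 1.70 for *POX06057*. With GLU as the reference it was 2.89 for *POX01167/CxrA*, 1.10 for *POX02071/ClrB-2*, 1.14 for *POX03837/ClrA*, 2.21 for *POX02484*, -1.55 for *POX03888/PrtT*, -2.08 for *POX07938*, 4.44 for *POX09469* and 1.82 for *POX06057*. Among transporters the difference from NC was 1.15 for *POX06051/CdtC*, 1.57 for *POX05915/CdtD*, 4.00 for *POX04918*, -3.95 for *POX07227*, -2.96 for *POX02624*, -3.88 for *POX03597* and 1.45 for *POX01168*. From GLU it was 2.22 for *POX06051/CdtC*, 4.07 for *POX04918*, -4.04 for *POX02624* and 8.34 for *POX01168*.

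Among genes of central carbon metabolism, trehalose, protein folding, the wall and peptidases the difference from NC was -1.56 for *POX04356*, -1.14 for *POX05829*, -3.40 for *POX08768*, 1.71 for *POX01189*, -1.97 for *POX02034*, -1.38 for *POX06818*, -1.74 for *POX07083* and -3.24 for *POX01929*. Relative to GLU it was -1.45 for *POX01075*, -3.59 for *POX04356*, -2.07 for *POX05829*, -3.12 for *POX08768*, 1.04 for *POX07083* and -4.34 for *POX01929*. Among conidiation markers the difference from GLU was 2.53 for *POX06534/BrlA*, 2.15 for *POX07099/FlbD*, 1.55 for *POX07586/FlbB*, 6.06 for *POX01176/ArpA-like*, 6.58 for *POX01179/ArpB-like*, 3.90 for *POX01390/AygA*, 2.25 for *POX03412/ArpA* and 1.11 for *POX01430/Alb1*.

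Among the remaining genes, most of them without annotation but with the cutinase gene *POX05132* and with *POX09299*, which carries a lipase domain, the difference from NC was 1.32 for *POX01175*, -5.70 for *POX00805*, -7.00 for *POX09076* and -1.92 for *POX05132*. From GLU it was 8.86 for *POX01175*, 8.72 for *POX01651*, -5.46 for *POX00805*, -3.87 for *POX09076*, -3.82 for *POX05132* and -8.44 for *POX09299*. The most negative differences that met the naming rule belonged to genes without annotation, at -9.61 from NC and at -9.34 and -8.53 from GLU, and the most positive one from NC, 6.87, did as well.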

How the results depend on the processing

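Scaling had the largest effect. After rescaling by the median of ratios, 1048 genes were higher and 1318 lower on AV, and 923 had a larger change than on GLU. Of the 122 named genes, 11 calls were lost on that scale and 6 genes, none of them called on the deposited scale, changed sign, with log2 fold changes of -0.18 for *POX00872/NimX*, -0.48 for *POX01356/Amy15A*, -0.02 for *POX02490/Cel7A-1*, -0.28 for *POX03888/PrtT*, -0.06 for *POX05090/TmpA* and -0.49 for *POX07164/TpiA*. With 1 library left out, *POX01356/Amy15A* was between -0.10 and 0.24 (-0.10 without AV_4h replicate 1 and -0.07 without AV_24h replicate 1) and *POX07164/TpiA* between -0.01 and 0.14. The cause was not tested. Leaving out each library in turn gave 3204 to 3507 called genes on AV, 1620 to 1887 against NC and 2519 to 2815 against GLU. It took *POX07025/AbaA* to 0.99 and *POX03180* to -0.96 without AV_4h replicate 1. The central carbon share changed by -0.276 percentage points in place of -0.256 when the most abundant gene was left out of the total. A pseudocount of 0.1 gave 3664 called genes, no filter 3348, all 72 libraries 3304 and an unadjusted *p* 3308.

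The replicate numbers did not pair the libraries: same-numbered libraries on AV had correlations of -0.175, -0.083 and -0.259 in their deviations from the group means. With a replicate block, 3306 genes were called on AV, 1696 against NC and 2635 against GLU. With 3 libraries a group, the exact test cannot go below 0.1.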

Other observations

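Among called genes with an absolute log2 fold change of at least 3, consecutively numbered genes were looked for after the values were seen, in runs of at least 5. The order of these genes on the chromosome was not analysed here. The longest run held 17 genes and began with *POX01166/Cel5B* and *POX01167/CxrA*, and it also held *POX01168*, *POX01176/ArpA-like* and *POX01179/ArpB-like*. All 17 rose on AV, by between 4.11 and 11.09 on the log2 scale with a median of 8.78, and all 17 were called after rescaling. Their median log2 fold change was 8.46 on NC and 1.86 on GLU, and the change on AV was larger than on NC for 4 of the 17 and larger than on GLU for all 17. A shorter run of 5 genes rose by between 3.58 and 6.52 on AV, with medians of 0.85 on NC and 0.19 on GLU, and all 5 changed more on AV than on either reference. The most abundant transcript in all 6 libraries was that of a gene without annotation, with means of 48366 FPKM at 4 h and 18984 FPKM at 24 h.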
